A study of Mus musculus with 16 samples.

Results

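The neurotrophin and GDNF family receptors were followed in mouse lumbar dorsal root ganglia (DRG), the clusters of sensory nerve cell bodies beside the spinal cord. The set was chosen by gene symbol and holds 7 genes, Ntrk2, Ntrk3, Ngfr, Ret, Gfra1, Gfra2 and Gfra3, of the 36722 genes in the deposited expression table. All mice were C57BL/6 and all had an inflamed paw after 20 µl of 2% carrageenan, so no uninflamed ganglia were among the samples. Intrathecal treatment was given 6 days later and the ganglia were taken 6 h after it. The vehicle group received PBS (5 libraries), the fusion protein group 1 µg of IL4-10 FP, a protein that joins interleukin 4 and interleukin 10 (6 libraries), and the combination group 0.5 µg each of unlinked IL4 and IL10 (5 libraries). Age and sex are not given in the sources used here, nor is the number of mice per library, so p-values measure the spread between these libraries. Whole ganglia were sequenced after polyA selection, and fewer cells of a type and less RNA per cell cannot be told apart in such bulk samples.

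Neurotrophins act through the Trk receptor tyrosine kinases and through p75, the product of Ngfr. Ntrk2 encodes TrkB, the receptor of BDNF and neurotrophin 4, and Ntrk3 encodes TrkC, the receptor of neurotrophin 3 that is best known from muscle afferents. GDNF family ligands bind a membrane-anchored co-receptor first, and the pair then engages the tyrosine kinase Ret: Gfra1 is the preferred co-receptor of GDNF, Gfra2 that of neurturin and Gfra3 that of artemin. In DRG, Ret and Gfra2 mark many non-peptidergic nociceptors and C-fibre low-threshold mechanoreceptors, Gfra3 is carried by peptidergic nociceptors, and TrkB by touch-sensitive A-fibre neurons. The truncated form of TrkB is also known from glia, and p75 from both neurons and glia.

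Each value stands for a whole gene, and for Ntrk2, Ntrk3 and Ret a gene pools receptor forms with different intracellular tails. The ends of their coding sequences are shown because they are where those forms part. Capitals mark the stop codon, and every stretch is the last 36 coding bases of a GENCODE transcript on GRCm38, read 5′ to 3′ on the strand of the gene.
Ntrk2 kinase form, 821 residues, chr13:59128318-59128353, plus strand: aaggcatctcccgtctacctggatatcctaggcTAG
Ntrk2 truncated form, 476 residues, chr13:58932025-58932060, plus strand: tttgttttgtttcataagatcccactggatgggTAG
Ntrk3 kinase form, 825 residues, chr7:78192559-78192594, minus strand: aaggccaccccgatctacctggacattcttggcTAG
Ntrk3 truncated form, 612 residues, chr7:78302629-78302664, minus strand: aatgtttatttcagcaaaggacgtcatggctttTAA
Ret long tail, 1115 residues, chr6:118153853-118153888, minus strand: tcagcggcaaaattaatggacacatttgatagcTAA
Ret short tail, 1073 residues, chr6:118155256-118155291, minus strand: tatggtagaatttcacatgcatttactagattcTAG
The ends of the Ntrk2 and Ntrk3 kinase forms match at 28 of 36 bases, those of the truncated forms at 14 and those of the Ret forms at 11. No value below separates these forms.

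The genes lie on 7 chromosomes of GRCm38. Ntrk2 (ENSMUSG00000055254) spans chr13:58806569-59133970, Ntrk3 (ENSMUSG00000059146) chr7:78175959-78738012, and Ngfr (ENSMUSG00000000120) chr11:95568818-95587735. Ret (ENSMUSG00000030110) spans chr6:118151745-118197718, Gfra1 (ENSMUSG00000025089) chr19:58235604-58455909, Gfra2 (ENSMUSG00000022103) chr14:70890120-70979838 and Gfra3 (ENSMUSG00000024366) chr18:34689898-34720387. Exons of Gfra1 overlap the antisense gene Gm16277 on the other strand. Whether strand was used in counting is not given in the sources used here. Gm16277 had scaled values of 1 to 4 in the 16 libraries against 2608 to 4347 for Gfra1. These values do not tell whether reads in the overlap were left out of Gfra1.

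The deposited values are variance-stabilised log2 values. They decoded to whole numbers, called scaled values here, which are in proportion between libraries but are not read counts, so the read depth is unknown and no counting interval is given. Their totals were 17228512 to 18733358 in the vehicle group, 16707007 to 19083947 in the fusion protein group and 18192127 to 20879857 in the combination group. The 12 pan-neuronal markers had summed scaled values of 159722 to 192524, 160783 to 228392 and 182796 to 215329 in those groups, and none was at the level of undetected genes in all libraries. All 7 receptors passed the filter on low values, a mean log2 value of at least 6.99.

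Per kilobase (kb) of the gene lengths used here, Ret and Ngfr were the most abundant receptors and Ntrk3 was the least abundant. In the vehicle group, scaled values per kb of the longest coding transcript were 2404 ± 169 (SD, n = 5) for Ret and 2039 ± 354 for Ngfr, and these ranges overlapped. The co-receptors and Ntrk2 followed, with 667 ± 39.4 for Gfra1, 632 ± 27.8 for Gfra2, 512 ± 70.4 for Ntrk2 and 404 ± 63.4 for Gfra3, each overlapping the next in the order. Ntrk3 stood below all of them at 58.6 ± 7.61. That place rests on the 19703 bases of its longest coding transcript, whereas other coding transcripts of Ntrk3 include ones of 2678 and 3977 bases. Not divided by length, the mean scaled value of Ntrk3 after vehicle, 1154, was above the 806 of Gfra3. The middle of the order also depends on the length used: per kb of all exons of the gene, Ntrk2 came below Gfra3, at 232 ± 31.9 against 404 ± 63.4, and Gfra2 (620) came before Gfra1 (566).

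The spacing of the GDNF and neurturin co-receptors differed between the groups. Per kb of the longest coding transcript, Gfra1 and Gfra2 overlapped in the vehicle group. In the fusion protein group Gfra1 stood at 716 ± 83.4 (SD, n = 6) and Gfra2 at 477 ± 43.5, with no overlap. In the combination group they stood at 773 ± 94.7 (SD, n = 5) and 502 ± 84.0, again apart. Per kb of all exons, Gfra1 at 607 ± 70.6 and Gfra2 at 468 ± 42.7 overlapped in the fusion protein group, and so did they in the combination group, at 655 ± 80.3 and 492 ± 82.4.

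**Figure D1:**
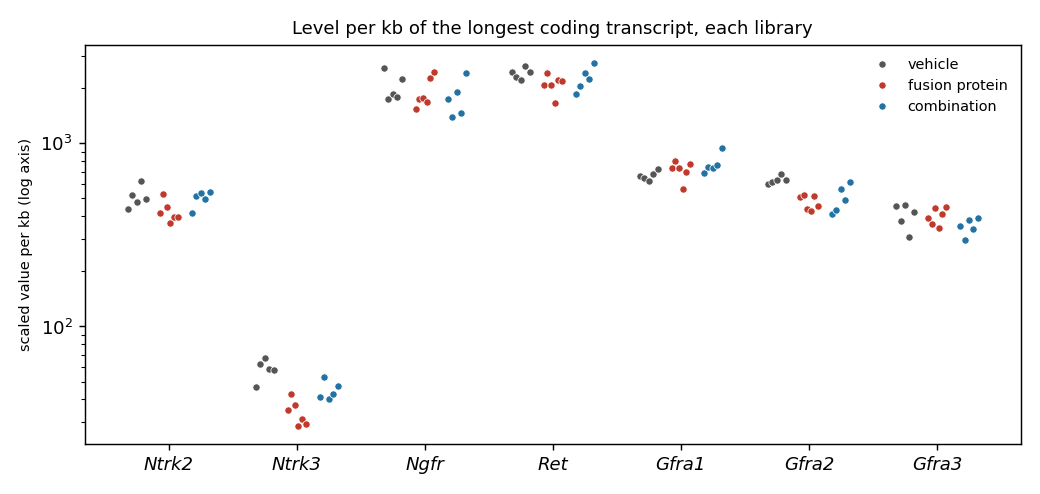
Scaled value per kb of the longest coding transcript (log axis) for each receptor, with 1 point per library coloured by group. Ret and Ngfr are at the top, Ntrk3 is at the bottom in all 16 libraries, and Gfra1 and Gfra2 lie side by side in the vehicle group and apart in the other groups.

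Set against vehicle, Ntrk3 and Gfra2 were lower after the fusion protein and after the unlinked cytokines, and the other 5 receptors did not pass the test in either comparison. Values were compared with limma in 1 fit of all 16 libraries, with Benjamini-Hochberg adjustment over 13385 tested genes and a threshold of 0.05. After the fusion protein 2 of the 7 receptors were lower and 0 higher, where 25.8% of all tested genes were called, 13.7% lower and 12% higher. After the combination 2 were again lower and 0 higher, where 36.5% of tested genes were called, 12.3% lower and 24.2% higher. Between the treatments 1 receptor, Ntrk3, was lower after the fusion protein and 0 higher, where 29.5% of tested genes were called, 22.2% lower and 7.35% higher. So many genes were called that these counts are read gene by gene, not as a result on the family. Median log2 differences of the receptors were −0.19, −0.16 and −0.10 in the 3 comparisons, beside −0.02, 0.06 and −0.09 over all tested genes. The comparisons share groups, 2 of them the same vehicle libraries, so their results are not independent of each other.

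Ntrk3, the neurotrophin 3 receptor, had the largest differences among the receptors on the deposited scale. Its log2 values in the vehicle group were 10.03, 10.40, 10.50, 10.32 and 10.31. In the fusion protein group they ran from 9.43 to 9.91 with a median of 9.595, and in the combination group they were 9.87, 10.18, 9.83, 9.91 and 10.04. All 6 fusion protein libraries were below every vehicle library, and 3 of 5 combination libraries were. Ntrk3 fell by 0.69 ± 0.10 (SE) on the log2 scale after the fusion protein, which is 1.61-fold lower, with a limma adjusted p of 9.18e-05. It fell by 0.34 ± 0.10 after the combination, 1.27-fold lower, with a limma adjusted p of 0.0122.

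The deposited scale understates such folds: mean scaled values of Ntrk3 were 1154 ± 150 (SD, n = 5) after vehicle, 672 ± 105 (SD, n = 6) after the fusion protein and 883 ± 103 (SD, n = 5) after the combination. Between the treatments, 5 of 6 fusion protein libraries were below every combination library. Ntrk3 was lower after the fusion protein than after the combination by a log2 difference of −0.35 ± 0.10, with a limma adjusted p of 0.0155. That call was lost without combination replicate 2 (−0.29, limma adjusted p = 0.053) and with libraries centred on pan-neuronal markers (−0.26, limma adjusted p = 0.151).

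Ntrk3 and Ntrk2 are among the longest genes measured, and the libraries differed in their trends on length and GC content. The ranges of these slopes overlapped between the groups, and a shift between groups was not tested. With 30170 bases in its exons Ntrk3 is longer than 99.9% of the tested genes, and Ntrk2 with 19292 bases is longer than 99.1%, while the median is 4616. The slope of log2 values on log2 length, per SD of length, was −0.03 to 0.10 in the vehicle libraries, −0.10 to 0.00 in the fusion protein libraries and −0.04 to 0.05 in the combination libraries. The slope on GC content, per SD of GC, was −0.03 to 0.15, −0.05 to 0.10 and −0.15 to −0.01 in the same order. With trends on GC content and length removed from each library, the Ntrk3 difference was −0.33 for the fusion protein against vehicle (limma adjusted p = 0.000983). It was −0.20 for the combination against vehicle (limma adjusted p = 0.0237), and the difference between the treatments was −0.13 and no longer called (limma adjusted p = 0.16).

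Ntrk2, the BDNF receptor, lay close to the threshold. Its log2 values were 11.95, 12.19, 12.07, 12.45 and 12.12 in the vehicle group, 11.70 to 12.21 with a median of 11.84 in the fusion protein group, and 11.87, 12.18, 12.24, 12.12 and 12.24 in the combination group. Below every vehicle library were 4 of the 6 fusion protein libraries, and the others were within the vehicle range. The log2 difference was −0.26 ± 0.10 for the fusion protein against vehicle (limma adjusted p = 0.0587), with a 95% interval of −0.46 to −0.05. Without fusion protein replicate 2, the highest of its group, the difference was −0.32 and passed the test (limma adjusted p = 0.0152), and without vehicle replicate 1 it was −0.31 (limma adjusted p = 0.0299). It passed as well with quantile normalization (−0.27, limma adjusted p = 0.00409), array weights (−0.28, limma adjusted p = 0.00401) and centring on pan-neuronal markers (−0.29, limma adjusted p = 0.049), whereas once trends on GC and length were removed it was 0.01. The combination differed from vehicle by −0.03 ± 0.10, with an interval of −0.24 to 0.19, and by −0.20 with quantile normalization (limma adjusted p = 0.0297). The fusion protein differed from the combination by −0.23 ± 0.10 (limma adjusted p = 0.0762), and by −0.30 with a call when fusion protein replicate 2 (limma adjusted p = 0.02) or combination replicate 1 (limma adjusted p = 0.0231) was left out. Over the 27 fits run, this difference between the treatments ranged from −0.32 to −0.07 and was called in 4.

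Ngfr, which encodes the p75 receptor shared by the neurotrophins, varied most within the groups. Its log2 values were 13.13, 12.58, 12.68, 12.62 and 12.93 after vehicle, 12.40 to 13.06 with a median of 12.59 after the fusion protein, and 12.59, 12.27, 12.72, 12.34 and 13.05 after the combination. The groups overlapped throughout. The log2 differences from vehicle were −0.10 ± 0.15 for the fusion protein, with an interval of −0.41 to 0.21, and −0.20 ± 0.15 for the combination, with an interval of −0.52 to 0.13. The numbers in the library names bear on Ngfr: numbers 1 to 8 hold 4 vehicle and 4 fusion protein libraries, and numbers 12 to 19 hold 1 vehicle library, 2 fusion protein libraries and all 5 combination libraries. The labels do not say what these numbers stand for. With a term for the later numbers, Ngfr differed by −0.49 between combination and vehicle and passed the test (limma adjusted p = 0.0388), and Ntrk3 differed by −0.24 and did not (limma adjusted p = 0.156).

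**Figure D2:**
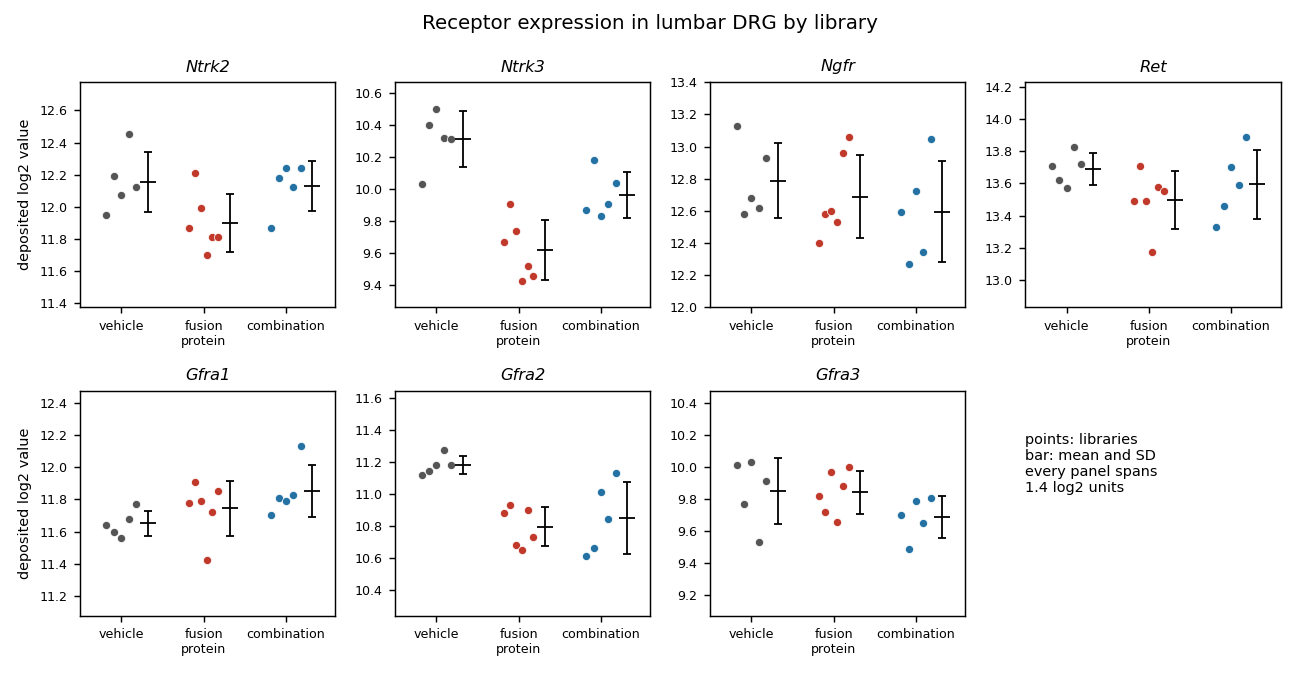
Deposited log2 value of each receptor, with 1 point per library in 3 groups and bars for the mean and SD; all panels span the same range of log2 units. Ntrk3 and Gfra2 show fusion protein libraries wholly below the vehicle libraries, and Ngfr shows the widest spread within groups.

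Gfra2, the neurturin co-receptor, was lower after each treatment. Its log2 values lay close together in the vehicle group, at 11.12, 11.14, 11.18, 11.27 and 11.18. They ran from 10.65 to 10.93 with a median of 10.805 after the fusion protein, and were 10.61, 10.66, 11.01, 10.84 and 11.13 after the combination. All 6 fusion protein libraries and 4 of 5 combination libraries were below every vehicle library. Gfra2 fell by 0.38 ± 0.09 on the log2 scale after the fusion protein, 1.31-fold lower (limma adjusted p = 0.00364). It fell by 0.33 ± 0.09 after the combination, 1.25-fold lower (limma adjusted p = 0.00898). The treatments differed from each other by −0.06 ± 0.09, with an interval of −0.24 to 0.13 that holds differences in both directions. Without a filter on low values, the combination calls were lost for Gfra2 (limma adjusted p = 0.0646) and Ntrk3 (limma adjusted p = 0.0837), as was the Ntrk3 call between the treatments (limma adjusted p = 0.117).

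Gfra2 and Ntrk3 were also compared among the library numbers 1 to 8 alone, 4 vehicle against 4 fusion protein libraries. There the fusion protein differed from vehicle by −0.39 in Gfra2 (limma adjusted p = 0.0137) and by −0.62 in Ntrk3 (limma adjusted p = 0.00995). Among numbers 12 to 19, Ntrk3 differed by −0.48 between 2 fusion protein and 5 combination libraries (limma adjusted p = 0.00637). The combination cannot be compared with vehicle within these ranges, because only 1 vehicle library has a late number. Gfra2 is shorter than the median gene, longer than 34.2% of those tested, and with GC and length trends removed it differed from vehicle by −0.43 after the fusion protein and −0.39 after the combination.

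Gfra1, the GDNF co-receptor, was the only one of the 7 whose mean was above vehicle in both treated groups, but neither difference passed the test; with GC and length trends removed, so were the means of Ntrk2, by 0.01 and 0.08. The Gfra1 log2 values were 11.64, 11.60, 11.56, 11.68 and 11.77 after vehicle, 11.42 to 11.91 with a median of 11.785 after the fusion protein, and 11.70, 11.81, 11.79, 11.83 and 12.13 after the combination. Above every vehicle library were 4 of 6 fusion protein and 4 of 5 combination libraries, while fusion protein replicate 4 had the lowest value of all 16. The log2 differences were 0.09 ± 0.09 for the fusion protein (limma adjusted p = 0.455) and 0.20 ± 0.09 for the combination (limma adjusted p = 0.0912), with intervals of −0.09 to 0.27 and 0.01 to 0.39. With array weights the combination difference was 0.21 and passed the test (limma adjusted p = 0.0137).

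Gfra3, the artemin co-receptor, had almost the same mean after vehicle and after the fusion protein. Its log2 values were 10.01, 9.77, 10.03, 9.53 and 9.91 after vehicle, 9.66 to 10.00 with a median of 9.85 after the fusion protein, and 9.70, 9.49, 9.79, 9.65 and 9.81 after the combination. The vehicle range covered all 6 fusion protein libraries. The fusion protein differed from vehicle by −0.01 ± 0.09 with an interval of −0.20 to 0.18, and the combination by −0.16 ± 0.10 with an interval of −0.36 to 0.04. Over the 27 fits run, the fusion protein difference ranged from −0.196 to 0.038. It was called in 1 of them, with a term for the replicate number and GC and length trends removed (limma adjusted p = 0.0367). Gfra3 is a short gene, longer than 11.4% of those tested, and with GC and length trends removed the combination difference was −0.32 and passed the test (limma adjusted p = 0.0104). Without vehicle replicate 4, the lowest of its group, it was −0.24 and passed as well (limma adjusted p = 0.0364), as it did with libraries centred on pan-neuronal markers (−0.28, limma adjusted p = 0.0351). Above every combination library were 4 of 6 fusion protein libraries, and that difference was 0.15 ± 0.09 (limma adjusted p = 0.199).

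Ret, the signalling kinase that the 3 co-receptors share, did not pass the test in any comparison. Its log2 values were 13.71, 13.62, 13.57, 13.83 and 13.72 after vehicle, 13.17 to 13.71 with a median of 13.52 after the fusion protein, and 13.33, 13.46, 13.70, 13.59 and 13.89 after the combination. Below every vehicle library were 4 of 6 fusion protein libraries and 2 of 5 combination libraries, but the highest of all 16 values was also a combination library. Ret differed from vehicle by −0.19 ± 0.10 after the fusion protein (limma adjusted p = 0.16) and by −0.10 ± 0.10 after the combination (limma adjusted p = 0.489). Quantile normalization, which forces the same distribution on all libraries, gave −0.24 (limma adjusted p = 0.00729) and −0.31 (limma adjusted p = 0.00142) for Ret.

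**Figure D3:**
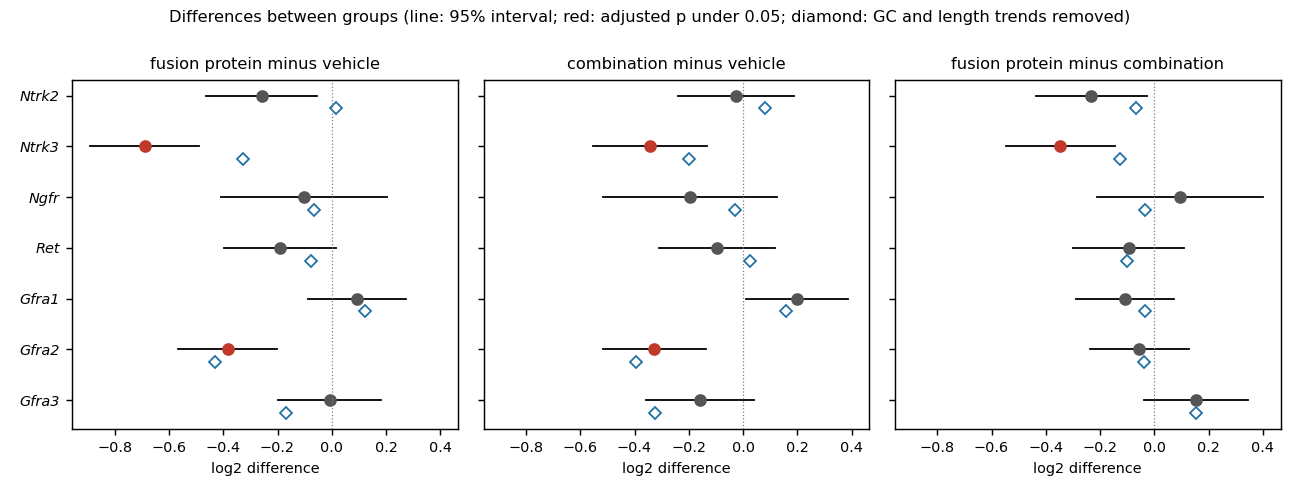
Log2 difference of each receptor in the 3 comparisons, with the 95% interval as a line, red points for adjusted p under 0.05, and open diamonds for the difference once trends on GC and length were taken out. Removing the trends moved Ntrk3 from −0.69 to −0.33 and Ntrk2 from −0.26 to 0.01 in the fusion protein comparison, and Gfra2 from −0.38 to −0.43.

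A plain ratio between receptors within a library does not move with a factor that scales all its genes. For differences of variance-stabilised values this holds less closely at lower levels. The fusion protein difference from vehicle in Ntrk2 to Ntrk3 was 0.43 as deposited and 0.52 on the log2 of the decoded value plus 1. The ratios were compared by exact permutation of the libraries, two-sided, with Benjamini-Hochberg adjustment over 12 tests, 4 ratios in 3 comparisons. The GDNF co-receptor stood higher against its kinase in both treated groups: the log2 ratio of Gfra1 to Ret was −2.07, −2.02, −2.01, −2.15 and −1.94 in the vehicle libraries, −1.87 to −1.70 with a median of −1.73 in the fusion protein libraries, and −1.63, −1.66, −1.91, −1.76 and −1.76 in the combination libraries. Every treated library was above every vehicle library. How many other pairs of genes separate the groups in this way was not computed, so each ratio is read by itself. For single genes, 25.8% of those tested were called after the fusion protein and 36.5% after the combination. The mean was higher than in vehicle by 0.28 after the fusion protein (exact p = 0.00216, adjusted 0.013) and by 0.29 after the combination (exact p = 0.00794, adjusted 0.0238), in both cases the smallest p that the design allows. The treatments differed from each other by −0.01 (exact p = 0.818).

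The neurturin co-receptor stood lower against the same kinase after the combination. The log2 ratio of Gfra2 to Ret was −2.60, −2.48, −2.39, −2.56 and −2.53 after vehicle and −2.73, −2.80, −2.68, −2.75 and −2.75 after the combination, with no overlap. That difference was −0.23 (exact p = 0.00794, adjusted 0.0238). After the fusion protein the ratio ran from −2.82 to −2.52 with a median of −2.73 and overlapped the vehicle range, with a difference of −0.19 that did not pass after adjustment (exact p = 0.0238, adjusted 0.0571). It passed on the log2 of the decoded value plus 1 (−0.22, exact permutation, adjusted p = 0.026), after removal of the GC and length trends (−0.36, exact permutation, adjusted p = 0.026), and without fusion protein replicate 4 (−0.23, exact permutation, adjusted p = 0.019). The ratio of Gfra3 to Ret did not pass in any comparison, its widest difference being 0.25 between the fusion protein and the combination (exact p = 0.0476, adjusted 0.0816).

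The balance of the 2 Trk genes also differed. The log2 ratio of Ntrk2 to Ntrk3 was 1.93, 1.79, 1.57, 2.13 and 1.81 after vehicle, 2.20 to 2.35 with a median of 2.285 after the fusion protein, and 2.00, 2.00, 2.40, 2.21 and 2.20 after the combination. All 6 fusion protein libraries were above every vehicle library, a difference of 0.43 (exact p = 0.00216, adjusted 0.013). The combination overlapped vehicle, with a difference of 0.32 that did not pass after adjustment (exact p = 0.0317, adjusted 0.0635).

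The called ratios were recomputed with the library numbers and the GC and length trends in view. Among numbers 1 to 8, where 4 against 4 libraries allow no exact p below 0.0286, the groups still did not overlap for Gfra1 to Ret (0.32) or Ntrk2 to Ntrk3 (0.40), each with an exact p of 0.0286, adjusted 0.0571. With GC and length trends removed, the Gfra1 to Ret difference after the combination was 0.13 and no longer called (exact permutation, adjusted p = 0.167). After the fusion protein it was 0.20 and still called. The Gfra2 to Ret difference after the combination was then −0.42, larger than without the removal, and that of Ntrk2 to Ntrk3 after the fusion protein 0.34, both still called (exact permutation, adjusted p = 0.026 each).

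**Figure D4:**
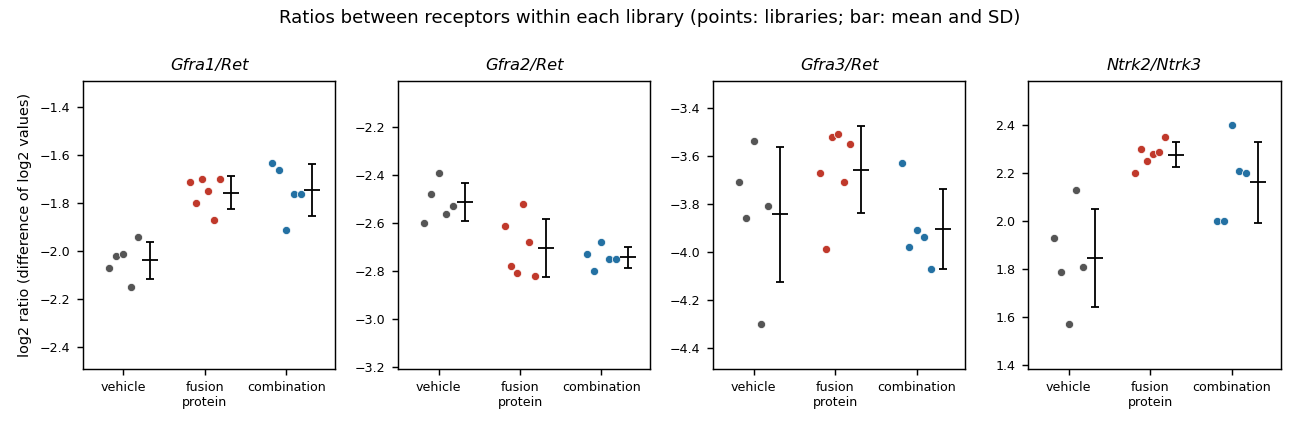
Log2 ratio between receptors (difference of log2 values) in each library, by group, with bars for the mean and SD. Gfra1 to Ret lies above vehicle in all treated libraries, Gfra2 to Ret lies below vehicle in all 5 combination libraries, and Ntrk2 to Ntrk3 lies above vehicle in all 6 fusion protein libraries.

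The neuron classes that carry these receptors were followed through marker lists. The counts stand beside shares of all tested genes of 12% higher and 13.7% lower after the fusion protein and 24.2% higher and 12.3% lower after the combination. Of 10 proprioceptor and A-fibre markers, 2 were higher and 3 lower after the fusion protein and 3 higher and 3 lower after the combination. Their summed scaled values were 44941 to 55401 after vehicle, 45647 to 65290 after the fusion protein and 47241 to 63020 after the combination. Of 11 non-peptidergic nociceptor markers, 1 was higher and 2 lower after the fusion protein and 4 higher and 0 lower after the combination, with summed values of 30050 to 38935, 25341 to 35224 and 30887 to 41330. Of 6 tested C-fibre low-threshold mechanoreceptor markers, 1 was higher and 1 lower after the fusion protein and 3 higher and 1 lower after the combination, with summed values of 4742 to 4945, 4593 to 5105 and 4536 to 5843. Of 9 peptidergic nociceptor markers, 2 were higher and 0 lower after the fusion protein and 6 higher and 0 lower after the combination, with summed values of 23785 to 26608, 28995 to 34881 and 29295 to 35170. After removal of the GC and length trends, 2 peptidergic markers were higher in each comparison with vehicle. Their part in the receptor differences was not tested.

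Between the treatments, markers lower after the fusion protein were 2 of 10 A-fibre, 6 of 11 non-peptidergic, 0 of 6 C-fibre low-threshold, 4 of 9 peptidergic and 6 of 12 pan-neuronal markers, and none of these lists had a marker called higher. Of all tested genes, 22.2% were lower and 7.35% higher after the fusion protein than after the combination, so that 2 of 10 A-fibre markers was near the share of all genes. After removal of the GC and length trends, 0 A-fibre, 2 non-peptidergic, 0 peptidergic and 0 pan-neuronal markers were lower, and 1 A-fibre marker was higher. Of the pan-neuronal markers, 2 were higher and 1 lower after the fusion protein, and 6 higher and 1 lower after the combination. Glia, which can carry Ngfr and truncated Ntrk2, gave 0 higher and 1 lower of 10 Schwann cell markers and 0 higher and 1 lower of 8 satellite glia markers after the fusion protein. After the combination the Schwann cell markers gave 4 higher and 1 lower and the satellite glia markers 3 higher and 1 lower. Summed Schwann cell values were 81981 to 114303, 86202 to 112723 and 94693 to 119727 in the vehicle, fusion protein and combination groups, and those of satellite glia 37290 to 57504, 39931 to 73119 and 42886 to 53011.

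Cells outside the neuron and glia lists were also counted, against the same shares of all tested genes: 12% higher and 13.7% lower after the fusion protein, and 24.2% higher and 12.3% lower after the combination. Of 12 tested macrophage and leukocyte markers, 5 were higher and 0 lower after the fusion protein and 1 higher and 1 lower after the combination, with summed values of 2689 to 5416 after vehicle, 4033 to 9512 after the fusion protein and 4283 to 5325 after the combination. Of 8 fibroblast and perineurium markers, 1 was higher and 3 lower after the fusion protein and 2 higher and 3 lower after the combination. Of 9 endothelial and mural cell markers, 1 was higher and 0 lower after the fusion protein and 2 higher and 1 lower after the combination. Of 6 tested muscle and bone marrow markers, 0 were higher and 1 lower in each comparison with vehicle. None of these lists held a marker at the level of undetected genes in all libraries, and their part in the receptor differences was not tested.

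Of 7 listed genes for ligands of these receptors, 6 were below the filter on low values in the ganglia. Bdnf was above it and did not pass the test in any comparison. Bdnf, the TrkB ligand, ran from 9.36 to 9.65 after vehicle, from 9.50 to 10.74 after the fusion protein and from 9.27 to 9.96 after the combination on the log2 scale, and differed from vehicle by 0.34 ± 0.19 and 0.16 ± 0.20. Fusion protein replicate 1 stood apart, with a scaled value of 1591 beside a group median of 651, and without it the fusion protein difference was 0.16. Ntf3, the TrkC ligand, had scaled values of 10 to 33 over the libraries, and Gdnf of 1 to 7. Artn and Nrtn, the artemin and neurturin genes, reached at most 5, Ntf5, which encodes neurotrophin 4, at most 3, and Pspn, the persephin gene, was at 1, the level of undetected genes, in all libraries.

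Receptor partners were lower where they were called after either treatment. Beside each list that follows stand the shares of all 13385 tested genes, of which 12% were called higher and 13.7% lower after the fusion protein, and 24.2% higher and 12.3% lower after the combination. Of 16 tested co-receptors and receptor partners, 6 were lower and 0 higher after the fusion protein, with a median log2 difference of −0.17, and 6 lower and 0 higher after the combination, with a median of −0.08. After the fusion protein these included Ptprs, a receptor phosphatase (−0.55 ± 0.08), Lingo1, a partner of p75 (−0.40 ± 0.12), and Sorcs1 (−0.34 ± 0.09) and Sort1 (−0.28 ± 0.08), of the sortilin family of sorting receptors. After the combination they included Ptprs (−0.68 ± 0.08), Lingo1 (−0.63 ± 0.12), Sorcs2 (−0.46 ± 0.09), and Sdc3, a heparan sulfate proteoglycan (−0.32 ± 0.09). Sort1 was not called without vehicle replicate 4 (−0.23). With GC and length trends removed, the counts were 1 higher and 5 lower after the fusion protein and 2 higher and 4 lower after the combination. Sdc3 was then at −0.05 and not called (limma adjusted p = 0.72), and it also lost its call with no filter on low values (limma adjusted p = 0.0787) and with a term for the late library numbers (limma adjusted p = 0.0693). Ptprs remained called in both comparisons at −0.19 and −0.25, and Sorcs2 after the combination at −0.25.

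Adaptors at the receptors were also mostly lower where called. Of 32 tested, 1 was higher and 10 lower after the fusion protein, with a median of −0.16, and 1 higher and 7 lower after the combination, with a median of −0.09. In either direction that was 11 of 32 after the fusion protein, beside 25.8% of all tested genes, and 8 of 32 after the combination, beside 36.5%. Leaving out each library in turn gave 1 higher and 7 to 10 lower adaptors after the fusion protein. For the combination it gave 0 to 3 higher and 5 to 9 lower. The called adaptors of lowest p after the fusion protein were the kinase Src (−0.40 ± 0.08), the phospholipase Plcg1 (−0.33 ± 0.08), Shc4 (−0.44 ± 0.11) and the exchange factor Rapgef1 (−0.30 ± 0.07). After the combination they were Irs2 (−0.79 ± 0.12), Src (−0.43 ± 0.08), Sh2b1 (−0.40 ± 0.08) and Frs3 (−0.51 ± 0.12). Once GC and length trends were removed, Rapgef1 was at −0.17 after the fusion protein and no longer called (limma adjusted p = 0.0592). Plcg1 was then at −0.19 after the fusion protein, and Src at −0.23 and Sh2b1 at −0.18 after the combination, all still called.

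Genes listed as negative regulators of receptor signalling were lower in 7 of 14 and higher in 0 after the fusion protein (median −0.26). They were lower in 3 and higher in 0 after the combination (median −0.17). What each listed gene does at these receptors was not tested. Of all tested genes, 13.7% and 12.3% were lower in the 2 comparisons. Summed scaled values of the list were 17375 to 20800 after vehicle, 13727 to 17516 after the fusion protein and 13841 to 17749 after the combination. Fusion protein replicates 1 (17481) and 2 (17516) and combination replicate 5 (17749) were within the vehicle range. The other fusion protein libraries reached at most 13852. Without 1 library at a time, 5 to 8 negative regulators were lower after the fusion protein and 1 to 5 after the combination. They included Ptprf, a receptor phosphatase, at −0.42 ± 0.06 and −0.65 ± 0.06 in the 2 comparisons. After the fusion protein they also included the ubiquitin ligases Cblb (−0.46 ± 0.11) and Nedd4l (−0.38 ± 0.11) and the Sprouty protein Spry4 (−0.33 ± 0.09). After the combination they included Spry2 (−0.28 ± 0.09) and the phosphatase Ptpn1 (−0.52 ± 0.17). Spry2 was not called without combination replicate 4 (−0.25) or vehicle replicate 2 (−0.26). Ptpn1 was not called without combination replicate 4 (−0.50) or 5 (−0.48) or vehicle replicate 1 (−0.41) or 2 (−0.47). Removing GC and length trends put Nedd4l after the fusion protein at −0.12 (limma adjusted p = 0.25) and Ptpn1 after the combination at −0.39 (limma adjusted p = 0.128), and neither was called. Ptprf was then at −0.19 and −0.35 and still called in both comparisons.

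Genes of the MAP kinase and PI3 kinase cascades downstream were called in both directions, in shares below or near those of all tested genes. Of 23 tested, 1 was higher and 2 lower after the fusion protein, with a median of −0.11, and 2 higher and 6 lower after the combination, with a median of 0.07. In either direction that was 3 of 23 after the fusion protein, beside 25.8% of all tested genes, and 8 of 23 after the combination, beside 36.5%. By direction, the 6 of 23 lower after the combination were above the 12.3% of all tested genes. The 2 of 23 higher were below the 24.2%. Without 1 library at a time, 1 to 5 were lower after the fusion protein and 1 to 5 higher after the combination. Map2k1, which encodes the MAP kinase kinase MEK1, was higher after the fusion protein by 0.35 ± 0.07 and after the combination by 0.40 ± 0.08. Map2k5 (−0.29 ± 0.05) and the PI3 kinase subunit Pik3r1 (−0.25 ± 0.09) were lower after the fusion protein. Pik3r1 lay at the threshold, with a limma adjusted p of 0.0479, and lost its call without vehicle replicate 2, 3, 4 or 5 or fusion protein replicate 1, 4, 5 or 6, at −0.20 to −0.25. After the combination Akt1 (−0.40 ± 0.09), Mapk7 (−0.43 ± 0.10) and the PI3 kinase subunit Pik3r2 (−0.42 ± 0.12) were lower. In the fit without GC and length trends, Pik3r2 was at −0.09 and Akt1 at −0.10 after the combination and Pik3r1 at −0.12 after the fusion protein, and none was called. Mapk7 after the combination was then at −0.19 and still called.

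Between the treatments, the pathway lists gave calls in both directions. Co-receptors and partners were 1 higher and 3 lower after the fusion protein than after the combination (median 0.03), adaptors 6 higher and 7 lower (median −0.10), effectors 3 higher and 7 lower (median −0.12) and negative regulators 2 higher and 2 lower (median −0.07). Of all tested genes, 7.35% were higher and 22.2% lower in that comparison. Without 1 library at a time, adaptors gave 2 to 7 higher and 2 to 10 lower, effectors 1 to 4 higher and 3 to 9 lower, negative regulators 2 higher and 1 to 5 lower, and partners 1 to 3 higher and 2 to 4 lower. Removal of GC and length trends gave counts higher and lower of 1 and 2 for partners, 2 and 2 for adaptors, 0 and 3 for effectors and 2 and 1 for negative regulators. With libraries centred on pan-neuronal markers the counts became 3 and 0, 7 and 0, 3 and 1, and 2 and 0, so that for 3 of the 4 lists the lower calls were lost. The lower genes included the PI3 kinase genes Pik3r1 (−0.40 ± 0.09) and Pik3ca (−0.29 ± 0.08), with the kinase Pdpk1 (−0.29 ± 0.08). Among partners they were Sorcs1 (−0.34 ± 0.09), Sort1 (−0.31 ± 0.08) and the Trk substrate Kidins220 (−0.23 ± 0.08). Among adaptors and negative regulators they included Gab1 (−0.29 ± 0.08), Grb10 (−0.22 ± 0.06), Rasa1 (−0.43 ± 0.11) and Cbl (−0.28 ± 0.09). The higher genes included Sorcs2 (0.37 ± 0.08), Akt1 (0.32 ± 0.09), Dok2 (0.57 ± 0.11), Sh2b2 (0.33 ± 0.09), Ptprf (0.22 ± 0.06) and Ptpn1 (0.61 ± 0.17). Kidins220 lost its call, at −0.19 to −0.23, without fusion protein replicate 1, 4, 5 or 6 or combination replicate 2, 3, 4 or 5. Cbl lost its call, at −0.23 to −0.29, without fusion protein replicate 4, 5 or 6 or combination replicate 2, 4 or 5. Without GC and length trends, 8 of these genes were no longer called: Grb10 (−0.06), Cbl (−0.10), Kidins220 (−0.05), Sorcs1 (−0.14), Pik3ca (−0.10), Pdpk1 (−0.12), Akt1 (0.15) and Sh2b2 (0.24). Pik3r1 (−0.25), Sort1 (−0.21), Gab1 (−0.20), Rasa1 (−0.21), Sorcs2 (0.35), Dok2 (0.49), Ptprf (0.15) and Ptpn1 (0.57) were still called. With no filter on low values, none of the 16 genes named here was called between the treatments. Under that setting Sorcs1, Lingo1, Sort1, Shc4, Spry4, Nedd4l and Pik3r1 lost their calls after the fusion protein, and Sdc3, Spry2, Ptpn1 and Pik3r2 after the combination. Among numbers 1 to 8 alone, Sorcs1, Sort1, Cblb, Spry4, Nedd4l and Pik3r1 were not called after the fusion protein.

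Genes whose centred log2 profile over the 16 libraries was nearest to each receptor were found by the root mean square (RMS) difference. Those nearest to Ntrk3 were Fat3, Kmt2a and Kalrn, with RMS differences of 0.116, 0.124 and 0.124, where the median tested gene was at 0.347. Nearest to Ntrk2 were Map4 (0.051), Erc1 (0.051) and Large (0.057), and nearest to Ngfr were Grin1 (0.104), Apba2 (0.118) and Sgsm1 (0.119). Nearest to Ret were Ptprn2 (0.061), Madd (0.064) and Arhgef11 (0.068). Among the co-receptors, Gfra1 was nearest to Endod1 (0.050), Msn (0.056) and Kat7 (0.058), Gfra2 to Map6 (0.074), Nptx1 (0.080) and Atp6v0a1 (0.084), and Gfra3 to Nkiras2 (0.092), Dnal4 (0.093) and Plcd1 (0.094). No receptor was among the 3 nearest genes of another; the closest pair was Ret and Gfra2 at 0.127, followed by Ret and Ntrk2 at 0.136. All of these profiles share the same libraries and their scaling.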

How the data were processed

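RNA was measured by polyA-selected sequencing of lumbar DRG in 16 libraries of 3 groups, taken from the library titles. FastQC, STAR, HTSeq, DESeq2 and the build GRCm38 are named in the submitters' processing notes, without versions. The authors deposited variance-stabilised log2 values per gene, with the scaling before that step not given in the sources used here. The authors also deposited p-value columns and a GC percent per gene; the p-values were not used, and the comparison behind them is not given. Every log2 value decoded to a whole number within 0.01, and these scaled values served for levels only.

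Gene lengths and coding ends came from the GENCODE annotation of GRCm38. Differences were tested with limma 3.58.1 in R 4.3.3 (trend and robust, 1 fit of all groups, two-sided) on 13385 genes with a mean at least 1 above the lowest value, log2 5.99. Ratios were tested by exact permutation in Python 3.11.15. The limma fit was tried on simulated data, and the permutation test on a small worked example with a known answer. Some genes of the pathway lists are not reported here and were left out of the counts. The receptors and gene lists were chosen with earlier results of these data known. The text names all receptors, the tested ligands, up to 4 called genes of lowest p per other pathway list and comparison, and the 3 nearest profiles per receptor. Alternatives were other filters, scalings and variance models, GC and length trends removed, library numbers, a replicate block, and leaving out each library. Ratios within library numbers were added after seeing the data.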

Additional observations from a re-analysis of the deposited data

How the results depend on the processing

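The lower Ntrk3 and Gfra2 after the fusion protein were called in all 27 fits run, with log2 differences of −0.78 to −0.32 and −0.43 to −0.35. Against vehicle, the combination call on Gfra2 held in 24 of 25 fits and that on Ntrk3 in 22 of 25, and the Ntrk3 call between the treatments held in 21 of 27. Over the tests and counts of single genes, lists and ratios, 3658 alternative values stayed on their side of the threshold or near their value, 162 lost a call, 25 gained one, 475 counts moved and 43 values changed sign, and none of those 43 passed the test after the change; the cause was not tested for any of them. Depth is unknown, which limits what can be said of low genes such as the ligands.

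Without a filter, where most added genes sit at the level of undetected genes, 1925, 3178 and 195 genes were called in the 3 comparisons (fusion protein against vehicle, combination against vehicle, fusion protein against combination), and 2, 0 and 0 receptors. Quantile normalization called 4 receptors against vehicle in each treatment and 2383 genes between the treatments, where Ret was at 0.071, Gfra1 at 0.04 and Gfra2 at 0.063; Gfra3 against vehicle was at 0.008 after the fusion protein, as with median centring. Centring on pan-neuronal markers called 0 receptors and 1500 genes between the treatments, with Gfra2 at 0.03; it moved the median of all genes by −0.12 for the combination against vehicle. The share of called genes that were higher was 46.7%, 66.2% and 24.9% as reported, 34.3%, 29.7% and 80.8% with that centring, and 40.8% between the treatments with quantile normalization. With GC and length trends removed this share was 42.0% between the treatments. Array weights called 6106 genes for the fusion protein against vehicle and 6275 genes and 2 receptors between the treatments, with Ngfr at 0.037, Gfra3 at 0.027 (both fusion protein against vehicle) and Ntrk2 at 0.003 (combination against vehicle).

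With GC and length trends removed, 0 receptors and 1575 genes were called between the treatments and 1 ratio for the combination against vehicle. Ntrk2 was at 0.014 after the fusion protein and 0.082 after the combination, Ret at 0.025 and Bdnf at −0.002 after the combination, Ngfr at −0.034 between the treatments, and the ratio differences of Gfra3 to Ret at −0.094 (fusion protein against vehicle) and of Gfra1 to Ret at 0.066 (between the treatments). With a term for late library numbers as well, 0 receptors and 921 genes were called between the treatments and 1683 genes for the combination against vehicle. In that fit Ntrk2 was at 0.017 and 0.097 against vehicle, Sdc3 at 0.036 (combination against vehicle), and Gfra1 at 0.042, Kidins220 at 0.013 and Grb10 at 0.008 between the treatments. The term for late numbers alone put Ntrk2 at 0.055 (combination against vehicle) and Bdnf at −0.004 (between the treatments). Numbers 1 to 8 alone called 2163 genes. Numbers 12 to 19 alone called 2 receptors between the treatments, Ntrk3 and Ntrk2, with Bdnf at −0.112 and the ratio difference of Gfra2 to Ret at −0.009.

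The labels do not say whether title numbers pair the libraries. Of 15 same-numbered pairs, 7 had correlated deviations over 0.1 (r from −0.20 to 0.60), and 6 of 15 libraries matched best with their own number. The mean r was 0.141 for pairs of the same number and −0.031 for pairs of different numbers. These values do not settle whether libraries of the same title number belong together. A replicate block on that number called 3216, 5195 and 3429 genes and 2, 2 and 1 receptors. The replicate block with GC and length trends removed called 0 receptors and 1827 genes between the treatments, with Ngfr at −0.089 there. In that blocked fit Ntrk2 was at 0.013 and 0.082 against vehicle, and Ret at 0.025 and Bdnf at −0.002 after the combination.

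Leaving out 1 library at a time gave 2 to 3 called receptors in each comparison with vehicle, and 0 to 2 receptors, 1999 to 5247 genes and 0 to 1 ratios between the treatments. The count of genes between the treatments fell most without combination replicate 2 (1999), 5 (2496) or fusion protein replicate 4 (2563). Differences that crossed 0 were those of Gfra3 (−0.088 to 0.038) after the fusion protein, Ntrk2 after the combination (−0.077 to 0.048), Gfra2 between the treatments (−0.118 to 0.014), and the ratios of Gfra3 to Ret after the combination (−0.179 to 0.013) and Gfra1 to Ret between the treatments (−0.054 to 0.016).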
